A study of Mus musculus with 4 samples.

Results

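The interleukin 6 family was described here as 9 genes taken by symbol from the 32286 features of each count matrix, which are 32285 mouse genes and a Cas9 feature. The ligand genes were Il6, Lif, Il11 and Osm, the receptor chain genes were Il6ra, Il6st, Lifr and Osmr, and Socs3 stood for the feedback inhibitor of the pathway. All 9 had at least 1 UMI (unique molecular identifier, 1 counted RNA molecule) in each of the 4 libraries. The libraries came from skeletal muscle of a mouse model of Duchenne muscular dystrophy, a disease in which the muscle protein dystrophin is missing. Mice had received LNP-CRISPR, lipid nanoparticles that carry the Cas9 cutting system, or vehicle, and cells were taken either as a bulk preparation or through a satellite cell isolation kit, satellite cells being the stem cells of muscle. This gave LNP-CRISPR bulk, vehicle bulk, LNP-CRISPR kit and vehicle kit, with 1 library each and therefore no replicate check for any difference. The strain, the Dmd allele, age, sex, dose, guide and time after dosing, and whether a library pooled animals, were not given in the sources used here.

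Cytokines of this family act through receptors that share Il6st, the signal-transducing chain known as gp130. Interleukin 6 first binds its own chain Il6ra, which can also be shed and act on cells that make only Il6st. Lif signals through Lifr with Il6st, and mouse oncostatin M, the product of Osm, signals mainly through Osmr with Il6st. The receptors activate JAK kinases and the transcription factor STAT3, which switches on Socs3, and SOCS3 protein then blocks the receptor. In injured muscle the family is known for acute-phase signalling and for effects on satellite cells and stromal cells.

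The 4 libraries held 6512 barcodes and 128987621 UMIs, and 5651 cells passed the filters (1149, 1199, 1899 and 1404 in the order given above, with medians of 16042, 22270, 10312 and 8627 UMIs). Pairs of libraries shared 0 to 3 barcodes. The cells fell into 25 clusters, which were formed without the 9 members, the 39 pathway genes described further on and Cas9, and clusters were named only from marker genes, hence "-like". The bulk libraries were mainly fibro-adipogenic progenitor-like (FAP-like, 440 and 664 cells with LNP-CRISPR and vehicle), macrophage- or monocyte-like (174 and 202), tenocyte-like (109 and 81), dendritic-like (65 and 58) and neutrophil-like (155 and 33). The kit libraries were only partly satellite- or myogenic-like (607 and 531 cells), with muscle fibre-like (285 and 277), pericyte- or smooth muscle-like (302 and 142) and glial-like cells (429 and 251). FAP-like cells made up 38.3% of LNP-CRISPR bulk cells and 55.4% of vehicle bulk cells, and neutrophil-like cells 13.5% and 2.75%. A level below is the summed UMIs of a gene in a class per 1000000 nuclear-encoded UMIs of that class (CPM, counts per 1000000). Intervals are exact 95% Poisson (levels), binomial (shares) or conditional binomial (ratios) intervals and cover counting error only.

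Il6 lies at chr5:30013114-30019981, Lif at chr11:4257557-4272514 and Socs3 at chr11:117966079-117970047 of GRCm38 (the build also called mm10) in the GENCODE M21 annotation. The 250 bases before their RefSeq transcription starts are printed 5′ to 3′, since Il6 and Lif are the 2 members that were called higher in more than 1 class and Socs3 is their inhibitor. They are chr5:30012864-30013113 (+ strand), chr11:4257318-4257567 (+ strand) and chr11:117969367-117969616 (− strand) of GRCm38.p6. Capitals mark matches, on either strand, to letters often used for STAT factors (TTCNNNGAA), NF-kB (GGGANTTTC), AP-1 (TGANTCA) and C/EBP (TTNNGNAAT).
Il6: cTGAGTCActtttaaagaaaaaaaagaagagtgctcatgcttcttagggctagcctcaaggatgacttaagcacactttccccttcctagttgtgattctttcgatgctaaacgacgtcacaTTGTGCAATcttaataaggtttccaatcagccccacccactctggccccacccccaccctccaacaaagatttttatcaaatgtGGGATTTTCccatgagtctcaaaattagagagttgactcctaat
Lif: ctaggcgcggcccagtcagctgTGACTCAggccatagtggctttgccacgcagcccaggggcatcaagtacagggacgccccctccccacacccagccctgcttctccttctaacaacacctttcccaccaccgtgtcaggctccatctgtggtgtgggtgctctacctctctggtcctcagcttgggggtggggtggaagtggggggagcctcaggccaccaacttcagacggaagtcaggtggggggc
Socs3: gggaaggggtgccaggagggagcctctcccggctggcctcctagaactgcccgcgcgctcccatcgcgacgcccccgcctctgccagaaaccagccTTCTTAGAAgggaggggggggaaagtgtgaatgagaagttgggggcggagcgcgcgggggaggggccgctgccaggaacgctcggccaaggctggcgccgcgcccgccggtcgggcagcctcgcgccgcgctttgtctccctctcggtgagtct
The Il6 window held 1 AP-1 match 249 bases before the start, 1 C/EBP match at 128 bases and 1 NF-kB match at 44 bases. The Lif window held 1 AP-1 match at 228 bases and the Socs3 window 1 STAT match at 154 bases, and no 2 matches overlapped. Of 32851 RefSeq promoter windows of this length, 7.02% held the STAT letters, 0.941% the NF-kB letters, 6.75% the AP-1 letters and 10.2% the C/EBP letters. Windows were listed for 8 of the 9 members (10 windows, Il11 and Lifr having 2 each), and Osm had none. Beside those printed, the only match was an AP-1 match 98 bases before the second Il11 start. A match shows only that these letters are present.

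LNP-CRISPR was compared with vehicle in the 8 classes that had at least 50 cells in both libraries of an isolation. A member was called higher or lower where both libraries together held at least 30 UMIs, the ratio was at least 1.5 or at most 1/1.5, and its interval did not hold 1. Of 36 pairs of member and class in the bulk isolation 26 had enough UMIs, of which 9 were called higher and 1 lower. In the kit isolation 22 of 36 had enough UMIs, of which 6 were called higher and 1 lower. Among 17 called pairs Il6 and Lif accounted for 11 (7 and 4), all higher. Il6 was called higher in each of the 7 classes with enough of its UMIs, that is all but the muscle fibre-like one, although at levels under 50 CPM in 4 of them, described further on.

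Read class by class, 2 of 8 measured members were called higher and 0 lower in FAP-like cells, where the same rule called 2.16% of all genes higher and 3.38% lower. In tenocyte-like cells 1 of 5 was higher and 0 lower (all genes 3.9% and 4.66%). In macrophage- or monocyte-like cells 2 of 7 were higher and 1 lower (2.68% and 3.51%), and in dendritic-like cells 4 of 6 were higher and 0 lower (6.15% and 6.43%). In the kit isolation the counts were 2 of 8 higher and 0 lower for satellite- or myogenic-like cells (1.5% and 2.71%) and 2 of 7 higher and 1 lower for pericyte- or smooth muscle-like cells (2.91% and 5.49%). Glial-like cells had 2 of 6 higher and 0 lower (3.13% and 1.8%). In muscle fibre-like cells only Socs3 had enough UMIs and was not called, while 12.6% of all genes were higher and 1.19% lower and the median of all genes lay 0.18 above 0 on the log2 scale.

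**Figure D1:**
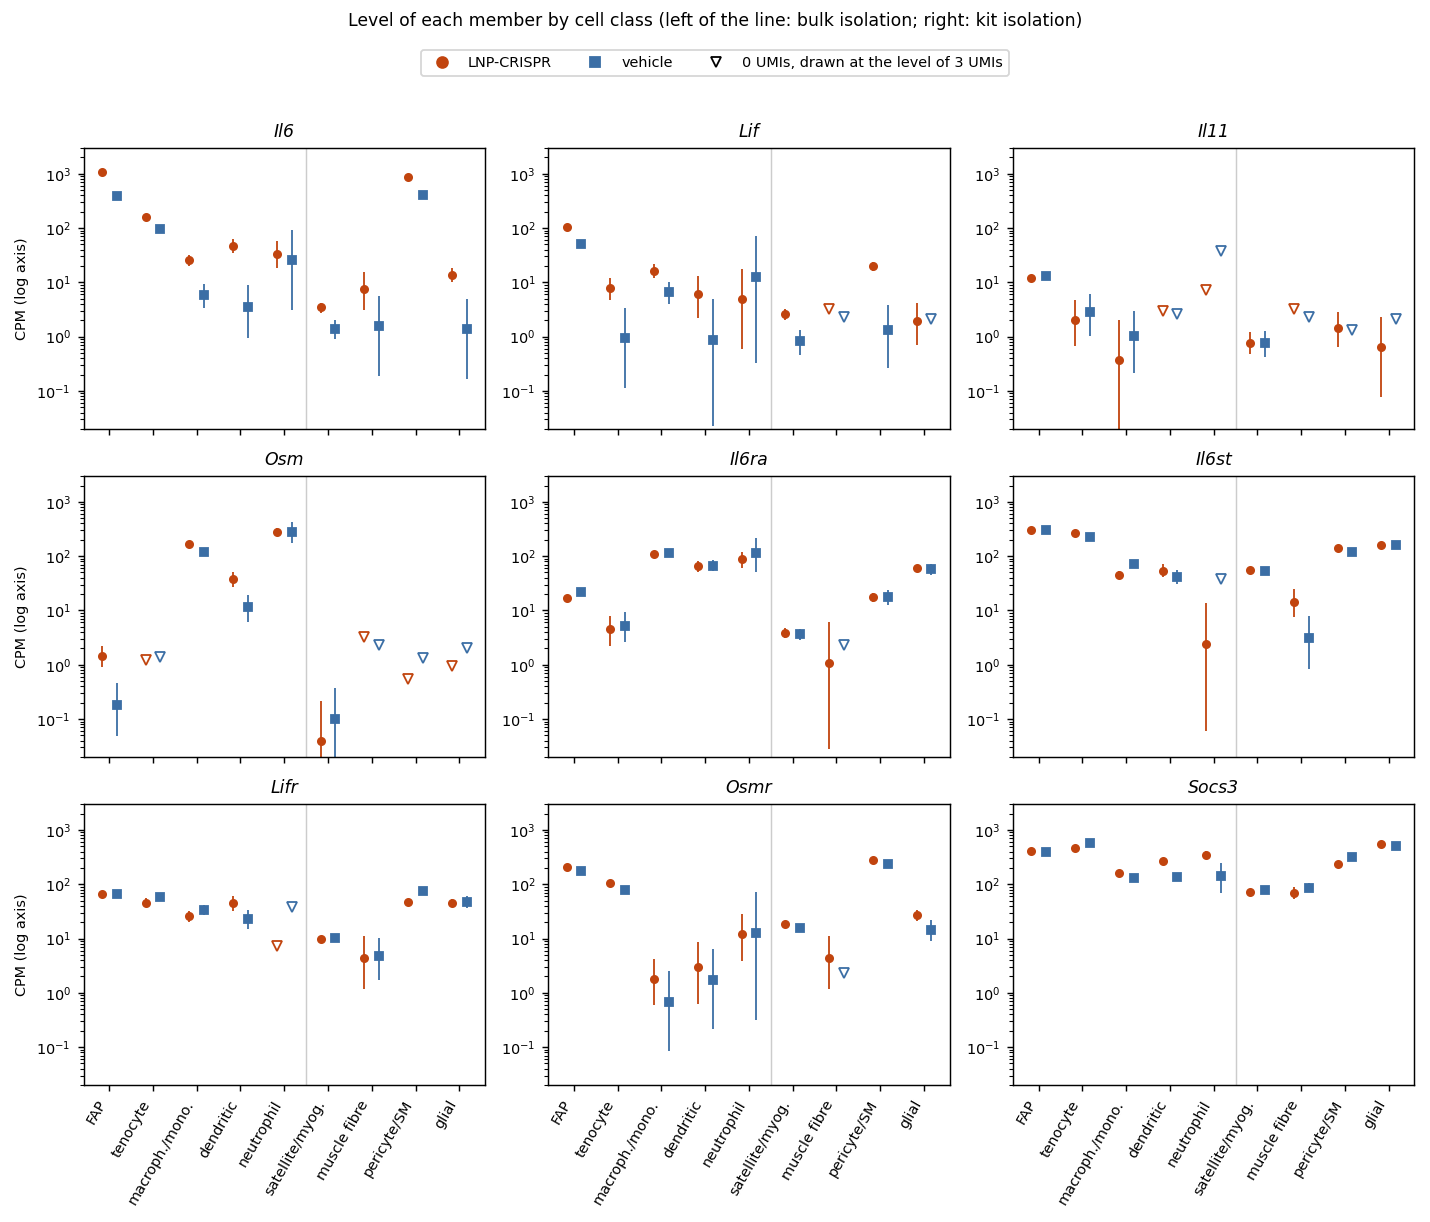
Level in CPM (log axis) of each of the 9 members in 9 cell classes, LNP-CRISPR (circles) left of vehicle (squares), with 95% Poisson intervals; triangles stand for 0 UMIs, drawn at the level of 3 UMIs. Il6 stands highest in FAP-like and pericyte- or smooth muscle-like cells, at 1100.4 and 881 CPM with LNP-CRISPR against 397 and 400.4 CPM with vehicle, while Osm is near 0 outside myeloid classes.

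Il6, the gene of interleukin 6, was found mainly in 2 stromal cell types. FAP-like cells had 1100.4 CPM (1084–1117) in LNP-CRISPR bulk and 397 CPM (389–405) in vehicle bulk, a ratio of 2.77 (2.70–2.84), and held 95.1% and 94.2% of the Il6 UMIs of these libraries. Pericyte- or smooth muscle-like cells, the contractile wall cells of vessels, had 881 CPM (856–906) in LNP-CRISPR kit and 400.4 CPM (375–427) in vehicle kit, a ratio of 2.20 (2.05–2.36), and held 91.2% and 91.3% of the kit libraries' Il6 UMIs. The same class in the bulk isolation, with only 23 and 26 cells, had 553 CPM and 544 CPM, a ratio of 1.02 (0.842–1.23). The higher Il6 of this class with LNP-CRISPR was therefore seen in the kit isolation and not in the few cells of the bulk isolation.

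The difference was seen across many cells of both sources. The share of FAP-like cells with an Il6 UMI was 83.9% (80.1–87.2) with LNP-CRISPR and 66.0% (62.2–69.6) with vehicle, and after thinning every cell to 1000 UMIs, which left out 7 and 2 shallower cells, it was 40.0% (35.3–44.7) and 21.6% (18.5–24.9). The median FAP-like cell had 11 Il6 UMIs with LNP-CRISPR and 2 with vehicle, at like depth (class medians of 29058 and 29076.5 UMIs). A few cells nevertheless carried much of it, since the richest 44 LNP-CRISPR cells held 53.6% and the richest 66 vehicle cells 62.1% of the Il6 UMIs. In pericyte- or smooth muscle-like cells the thinned share was 39.1% (33.5–44.8) with LNP-CRISPR and 14.2% (8.88–21.1) with vehicle.

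All 4 FAP-like clusters had Il6 called higher. Cluster 1, led by inflammatory genes such as Cxcl5, Ptx3 and Il33 and by the adventitial marker Pi16, had 1534 CPM with LNP-CRISPR and 458 CPM with vehicle (ratio 3.35, 3.22–3.49). Cluster 10, which held the division genes Mki67 and Top2a, had 1079 and 225 CPM (4.79, 4.43–5.18). The matrix-rich cluster 2 (Smoc2, Lum, Col3a1) had 685 and 396 CPM (1.73, 1.65–1.81), and cluster 5 (Gdf10, Myoc, Gsn) had 1169.8 and 451 CPM (2.59, 2.41–2.79). The size of the ratio thus ranged from 1.73 to 4.79 among these clusters, which were looked at separately after the class values had been seen.

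**Figure D2:**
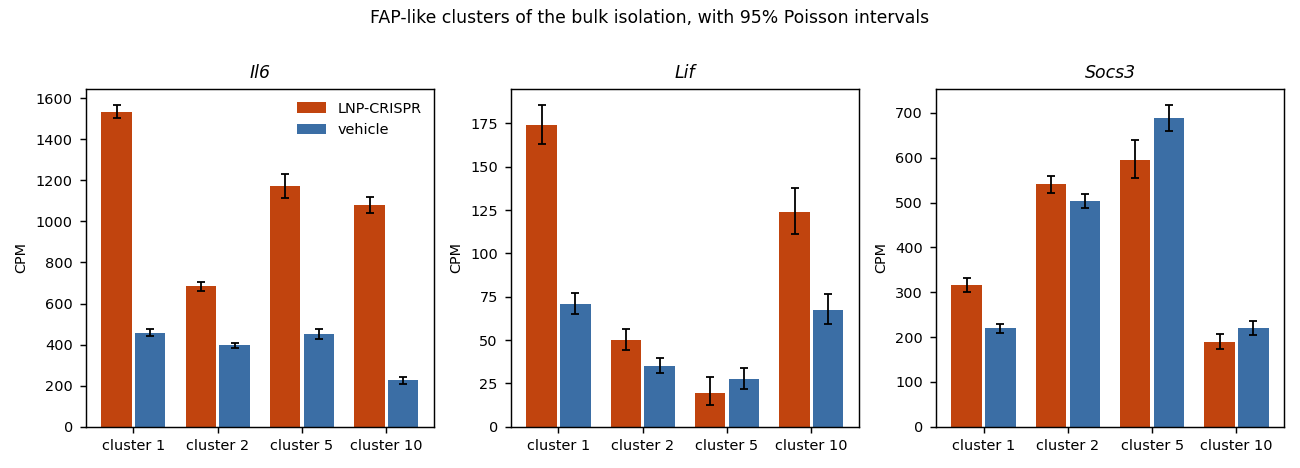
Levels in CPM of Il6, Lif and Socs3 in the 4 FAP-like clusters of the bulk isolation, LNP-CRISPR bars left of vehicle bars, with 95% Poisson intervals. Il6 is higher with LNP-CRISPR in every cluster, Lif is called higher in clusters 1 and 10 and misses the 1.5-fold limit in cluster 2 (1.42), and Socs3 differs by less than 1.5-fold in each.

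Tenocyte-like cells, the fibroblasts of tendon, had 162 CPM of Il6 in LNP-CRISPR bulk and 96.3 CPM in vehicle bulk (ratio 1.69, 1.42–2.01). Their few cells in the kit isolation (37 and 24) had 117 and 14.7 CPM. Within the bulk class the difference lay in cluster 3 (207 and 103 CPM, ratio 2.02, 1.61–2.53), while cluster 19 had 108 and 89.3 CPM (1.21, 0.917–1.61).

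Il6 was far lower in the other classes. Macrophage- or monocyte-like cells had 25.6 CPM with LNP-CRISPR and 5.87 CPM with vehicle (ratio 4.36, 2.54–7.90), from 70 UMIs, 19 of them in 1 cell, and 17 UMIs. Dendritic-like cells had 46.9 and 3.51 CPM (13.4, 4.88–51.0), from 47 UMIs, 16 of them in 1 cell, and 4 UMIs. Without the highest cell of each library these ratios were 3.85 (2.10–7.54) and 11.6 (3.63–59.5), both still called. Neutrophil-like cells, too few with vehicle for a ratio, had 33.8 and 25.3 CPM, and T- or NK-like cells 18.0 and 4.34 CPM.

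Free RNA from the stromal sources can add UMIs to such classes, and it carries FAP marker RNA with it. In LNP-CRISPR bulk, Il6 came to 27.6 UMIs per 1000 FAP marker UMIs in FAP-like cells, 44.2 (34.5–55.9) in macrophage- or monocyte-like cells and 53.0 (38.9–70.5) in dendritic-like cells. In vehicle bulk the same figures were 9.06, 11.4 (6.64–18.3) and 3.84 (1.05–9.84). With vehicle the intervals of these myeloid classes held the FAP-like value, at 17 and 4 Il6 UMIs, so these levels are not read as expression. With LNP-CRISPR the intervals lay above the FAP-like value for macrophage- or monocyte-like and dendritic-like cells, but not for neutrophil-like (28.4, 15.5–47.6) or T- or NK-like cells (35.7, 15.4–70.4). In the first 2 classes 1 cell each held 19 of 70 and 16 of 47 Il6 UMIs. The Il6 UMIs per 1000 FAP marker UMIs of these 2 classes were not recomputed without that cell, so they are not read as expression either. Summed FAP markers (10 of 10 detected) stood at 579 and 515 CPM in macrophage- or monocyte-like cells and at 885 and 914 CPM in dendritic-like cells with LNP-CRISPR and vehicle. Summed neutrophil markers stood at 376 and 276 CPM in macrophage- or monocyte-like cells. In dendritic-like cells they were 246 CPM (7 of 9 detected) and 35.997 CPM (5 of 9), and tenocyte markers 172 CPM (6 of 8) and 23.7 CPM (5 of 8). T or NK markers there were 131 CPM (9 of 11) and 7.90 CPM (4 of 11), and B cell markers 128 and 36.9 CPM. Glial markers (57.9 and 89.6 CPM) and mast cell markers (26.9 and 29.9 CPM) went the other way. The dendritic-like class also held macrophage or monocyte markers (1709 and 1604 CPM) above its own (1092 and 1038 CPM). The part of free RNA and of these other cell types in the Il6 ratios was not tested. The dendritic-like ratio did not hold when called doublets were kept, falling to 0.465. That setting also clustered and named all cells anew, so the cells in the class could differ.

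**Figure D3:**
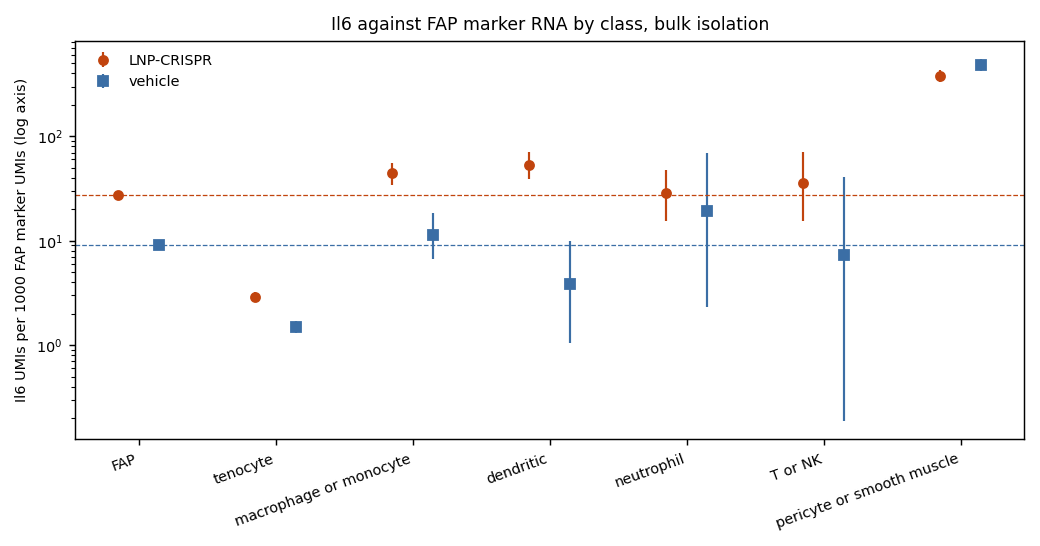
Il6 UMIs per 1000 summed FAP marker UMIs (log axis) in classes of the bulk isolation, LNP-CRISPR (circles) left of vehicle (squares), with 95% Poisson intervals and dashed lines at the values of the FAP-like class (27.6 and 9.06). The pericyte- or smooth muscle-like class lies far above both lines.

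In the kit isolation Il6 was also called higher in satellite- or myogenic-like cells (3.44 and 1.38 CPM with LNP-CRISPR and vehicle, ratio 2.50, 1.61–4.01, up to 6.70 with called doublets kept and cells named anew) and glial-like cells (13.8 and 1.38 CPM, ratio 10.0, 2.61–85.4). Both levels were low. Per 1000 pericyte marker UMIs, the class that held most Il6 had 26.8 and 11.9 Il6 UMIs with LNP-CRISPR and vehicle, satellite- or myogenic-like cells 5.03 and 1.79, and glial-like cells 19.5 and 2.52. The values of both classes lay below that of the pericyte- or smooth muscle-like class in both libraries, the vehicle glial-like value resting on 2 UMIs, so the Il6 calls of these 2 classes are not read as expression. Such values do not show absence of expression either, since a class that holds some of these marker RNAs itself would also have a low value. The part of free RNA in these calls was not tested. Within the satellite- or myogenic-like class the clusters differed in direction, with 58 and 9 UMIs in the histone-rich cluster 21 and 5 and 17 UMIs in the Myog-positive cluster 18, where 1 vehicle cell held 13. Of the 43 Il6 UMIs in LNP-CRISPR glial-like cells 29 lay in 1 cell, and without the highest cell of each library the ratio was 6.54 (0.995–276) and no longer called.

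Lif, the gene of leukaemia inhibitory factor, had its highest level among named classes in FAP-like cells, at 105 CPM in LNP-CRISPR bulk and 51.2 CPM in vehicle bulk (ratio 2.05, 1.89–2.21). The class held 94.7% and 97.3% of the Lif UMIs of these libraries. Lif was concentrated in fewer cells than Il6, with a UMI in 32.05% and 24.7% of FAP-like cells, and the richest 44 and 66 cells held 82.6% and 85.3% of its UMIs. Cluster 1 had 174 and 71.0 CPM (2.45, 2.20–2.73) and cluster 10 had 124 and 67.3 CPM (1.84, 1.55–2.18), both called higher. Cluster 2 (49.98 and 35.1 CPM, 1.42) was not called, and cluster 5 went the other way without being called (19.5 and 27.3 CPM, 0.712, 0.440–1.12). FAP-like cells with both an Il6 and a Lif UMI made up 30.9% with LNP-CRISPR and 19.4% with vehicle.

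Lif was also called higher in 3 other classes at lower levels. Pericyte- or smooth muscle-like cells of LNP-CRISPR kit had 107 Lif UMIs in only 32 of 302 cells, the 30 richest holding 98.1%. Their level was 19.6 CPM against 1.31 CPM in vehicle kit (3 UMIs), a ratio of 15.03 (5.01–74.0). That ratio was 38.3 without the highest cell of each library and 4.72 under a stricter cell filter, and called higher in both. Macrophage- or monocyte-like cells had 16.4 and 6.56 CPM (2.51, 1.44–4.54), which fell to a ratio of 1.21 when every cell was given the same weight. Satellite- or myogenic-like cells had 2.59 and 0.815 CPM (3.18, 1.82–5.88). In macrophage- or monocyte-like cells Lif reached 28.4 (20.7–38.0) and 12.7 (7.67–19.9) UMIs per 1000 FAP marker UMIs, against 2.62 and 1.17 in FAP-like cells of the same libraries, and the part of free RNA in it was not tested. Of the kit libraries' Lif UMIs, satellite- or myogenic-like cells held 34.9% with LNP-CRISPR and 55.2% with vehicle, and pericyte- or smooth muscle-like cells 55.7% and 10.3%. Within the satellite- or myogenic-like class the Pax7- and Myf5-rich cluster 12 had 26 Lif UMIs with LNP-CRISPR and 2 with vehicle (8.35 and 0.703 CPM), too few for a call.

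Il11, at chr7:4772373-4782859, encodes interleukin 11, a cytokine known for fibroblast activation. It was scarce and nearly limited to FAP-like cells, with 12.0 and 12.9 CPM (179 and 289 UMIs) in LNP-CRISPR and vehicle bulk, which were 96.8% and 96.0% of its UMIs there. The ratio was 0.928 (0.766–1.12), so no difference was detectable at this depth beyond a factor of 1.5. Only 45 FAP-like cells of LNP-CRISPR bulk and 89 of vehicle bulk had an Il11 UMI. The richest 44 and 66 cells therefore held nearly all of them, at 99.4% and 92.0%. By cluster the levels were 20.1 and 19.3 CPM in cluster 1, and in the Mki67 cluster 10 they were 9.41 and 21.6 CPM (0.436, 0.268–0.688, lower, with 41 of the 77 vehicle UMIs in 1 cell). Satellite- or myogenic-like cells had 0.774 and 0.764 CPM.

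Osm, at chr11:4236420-4241026, beside Lif on the chromosome, showed the opposite distribution and was a transcript of myeloid cells. Neutrophil-like cells had 280.4 CPM (232–336) in LNP-CRISPR bulk and 279 CPM (175–422) in vehicle bulk, at very different cell numbers (155 and 33). Macrophage- or monocyte-like cells had 169 and 119 CPM (ratio 1.42, 1.24–1.64, under the limit of 1.5) and held 71.9% and 88.4% of Osm UMIs, the neutrophil-like cells of LNP-CRISPR bulk another 18.0%. The share of macrophage- or monocyte-like cells with an Osm UMI was 66.7% and 50.5%, and 17.1% and 12.9% after thinning. The difference lay in the Ly6c2- and Chil3-rich monocyte cluster 16, with 249 and 115 CPM (2.16, 1.66–2.82), rather than in the C1qa-rich macrophage cluster 4, with 141 and 120 CPM (1.17, 0.986–1.39). Dendritic-like cells had 37.9 and 11.4 CPM (3.32, 1.73–6.80), called higher, beside the neutrophil marker sums given above.

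Outside myeloid cells Osm was almost absent. FAP-like cells had 22 and 4 UMIs in 14951401 and 22401691 nuclear-encoded UMIs. Tenocyte-like cells of both bulk libraries, and pericyte- or smooth muscle-like, muscle fibre-like and glial-like cells of both kit libraries, had 0 Osm UMIs. For the pericyte- or smooth muscle-like cells of the kit isolation a count of 0, taken as a limit of 3 counts, allows up to 0.551 CPM with LNP-CRISPR and 1.31 CPM with vehicle.

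Among the receptor genes Il6ra, the interleukin 6 binding chain at chr3:89864059-89913196, had its highest levels in the myeloid and glial classes. Its levels with LNP-CRISPR and vehicle were 108 and 112 CPM in macrophage- or monocyte-like, 87.0 and 114 CPM in neutrophil-like, 64.8 and 66.7 CPM in dendritic-like and 59.2 and 57.3 CPM in glial-like cells. FAP-like cells had 16.9 and 21.7 CPM (0.778, 0.666–0.908) and satellite- or myogenic-like cells 3.83 and 3.67 CPM. With LNP-CRISPR, the intervals of the first 4 classes each overlapped with that of the next, while those of FAP-like and satellite- or myogenic-like cells lay below. The many FAP-like cells still held 36.4% and 51.9% of the Il6ra UMIs of LNP-CRISPR and vehicle bulk. Macrophage- or monocyte-like cells held 42.5% and 34.6%. Il6ra was called in no class, and within FAP-like cells only cluster 2 passed (12.9 and 20.03 CPM, 0.644, 0.482–0.854, lower). The annotation places Gm42809 on the opposite strand within Il6ra, and since strand use in counting was not given in the sources used here, its reads cannot be told apart with certainty.

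Il6st, the shared chain at chr13:112464070-112510086, had its highest levels in the stromal classes. With LNP-CRISPR and vehicle it had 301 and 303 CPM in FAP-like, 272 and 225 CPM in tenocyte-like, 163 and 160 CPM in glial-like and 143 and 117 CPM in pericyte- or smooth muscle-like cells. Satellite- or myogenic-like cells had 55.5 and 53.7 CPM, and the Pax7- and Myf5-rich cluster 12 among them 142 and 122 CPM. Neutrophil-like cells had 1 and 0 UMIs. The ratio was 0.992 (0.955–1.03) in FAP-like and 1.03 (0.954–1.12) in satellite- or myogenic-like cells, so changes beyond 1.2-fold are outside these intervals. Il6st was called lower only in macrophage- or monocyte-like cells, at 45.0 and 72.5 CPM (0.620, 0.492–0.778), with 0.617 and 0.626 in clusters 4 and 16. Weighting every cell the same brought the class ratio to 0.734, which is not called. Pericyte- or smooth muscle-like cells of the bulk isolation, too few for the comparisons (23 and 26), had 207 and 118 CPM of Il6st. That ratio was 1.76 (1.22–2.56), from 84 and 49 UMIs, and passed the same limits.

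Lifr, at chr15:7090614-7197489, had 65.4 and 66.8 CPM in FAP-like, 45.8 and 59.0 CPM in tenocyte-like and 45.4 and 47.7 CPM in glial-like cells with LNP-CRISPR and vehicle. Pericyte- or smooth muscle-like cells of the kit isolation had 47.7 and 74.5 CPM (0.641, 0.526–0.782), called lower. In the bulk isolation the same class had 76.5 and 57.7 CPM from 31 and 24 UMIs. Dendritic-like cells had 44.9 and 22.8 CPM (1.97, 1.19–3.32), called higher from 45 and 26 UMIs. Neither Lifr call held with every cell weighted the same, where the ratios were 0.698 in pericyte- or smooth muscle-like and 1.03 in dendritic-like cells. With called doublets kept and cells named anew they were 0.678 and 1.18, again not called. At clustering resolution 2.0 the pericyte- or smooth muscle-like ratio was 0.670, also not called. In tenocyte-like cells, not called as a class (0.777, 0.596–1.01), cluster 19 alone had 20.8 and 55.9 CPM (0.371, 0.218–0.612, lower) and cluster 3 had 66.6 and 61.9 CPM.

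Osmr, at chr15:6813577-6874969, stood highest in pericyte- or smooth muscle-like cells, with 282 and 233 CPM in LNP-CRISPR and vehicle kit and 306 and 212 CPM in the bulk isolation. FAP-like cells followed with 206 and 173 CPM and tenocyte-like cells with 108 and 78.8 CPM. The ratios of 1.21 (1.10–1.34), 1.19 (1.13–1.25) and 1.36 (1.12–1.67) lay above 1 in these 3 classes but under 1.5, although clusters 3 and 10 taken alone passed with 1.51 and 1.54. Satellite- or myogenic-like cells had 18.5 and 15.4 CPM, with 75.1 and 60.1 CPM in cluster 12, and of clusters 11, 12, 18 and 21 cluster 11 was called higher (10.2 and 4.23 CPM, 2.41, 1.498–3.97). Glial-like cells had 26.7 and 14.5 CPM (1.84, 1.13–3.13), called higher, though with every cell weighted the same the ratio was 1.23. Macrophage- or monocyte-like cells, the main holders of Osm, had 5 and 2 Osmr UMIs in all.

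Receptor chains were often found in the same cell. Both Il6st and Osmr had a UMI in 89.8% of LNP-CRISPR and 90.1% of vehicle FAP-like cells, and in 78.5% and 62.7% of pericyte- or smooth muscle-like cells of the kit isolation. In macrophage- or monocyte-like cells the pair was seen in 2.87% and 0.495%. Il6st with Il6ra was seen in 33.3% and 35.1% of macrophage- or monocyte-like and 31.6% and 39.0% of FAP-like cells, and Il6st with Lifr in 60.7% and 61.4% of FAP-like cells. These shares depend on depth, and satellite- or myogenic-like cells, of median depth 26456 and 19396 UMIs, had Il6st with Osmr in 30.3% and 23.2%. They also depend on how often each gene was found. In FAP-like cells Il6st had a UMI in 418 of 440 with LNP-CRISPR and 648 of 664 with vehicle, and Osmr in 404 and 606. Joint detection beyond these single shares was not tested.

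Socs3, the feedback inhibitor, was found in every class and did not follow Il6 in the 2 main sources. FAP-like cells had 402 CPM (391–412) with LNP-CRISPR and 388 CPM (380–397) with vehicle, a ratio of 1.03 (1.0004–1.07) beside 2.77 for Il6. Pericyte- or smooth muscle-like cells had 234 and 315 CPM (0.742, 0.677–0.814), not called, beside 2.20 for Il6. Among FAP-like clusters the ratio was 1.44 (1.35–1.55) in cluster 1, 1.08 in cluster 2, 0.866 in cluster 5 and 0.861 in cluster 10. Tenocyte-like cells had 461 and 565 CPM (0.816, 0.752–0.886) and glial-like cells 541 and 500.2 CPM (1.08, 0.991–1.18). Satellite- or myogenic-like cells had 70.5 and 79.8 CPM (0.884, 0.826–0.946), with 293 and 327 CPM in cluster 12. The division-rich cluster 11 of that class went the other way (45.3 and 21.6 CPM, 2.10, 1.70–2.60, higher), as did the Myog-positive cluster 22 (100.5 and 51.8 CPM, 1.94, 1.31–2.91, higher).

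Among myeloid cells the Socs3 ratios differed by class and cluster. Dendritic-like cells had 266 and 135 CPM of Socs3 (1.97, 1.61–2.42), called higher, although the ratio was 1.16 when called doublets were kept and cells named anew. The monocyte cluster 16, whose Osm was higher, had 185 and 84.8 CPM of Socs3 (2.18, 1.61–2.99), whereas the macrophage cluster 4 had 155 and 147 CPM (1.06, 0.901–1.24). The 2 clusters together gave 163 and 131 CPM (1.25, 1.09–1.44), not called. Neutrophil-like cells had 350.5 and 139 CPM, the vehicle value resting on 11 UMIs in 33 cells. Cells with both an Osm and a Socs3 UMI made up 50.6% and 30.7% of macrophage- or monocyte-like cells. Taken singly, Osm had a UMI in 116 of 174 and 102 of 202 of these cells, and Socs3 in 118 and 113. The joint shares depend on these single shares, and an association of the 2 genes within cells was not tested.

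**Figure D4:**
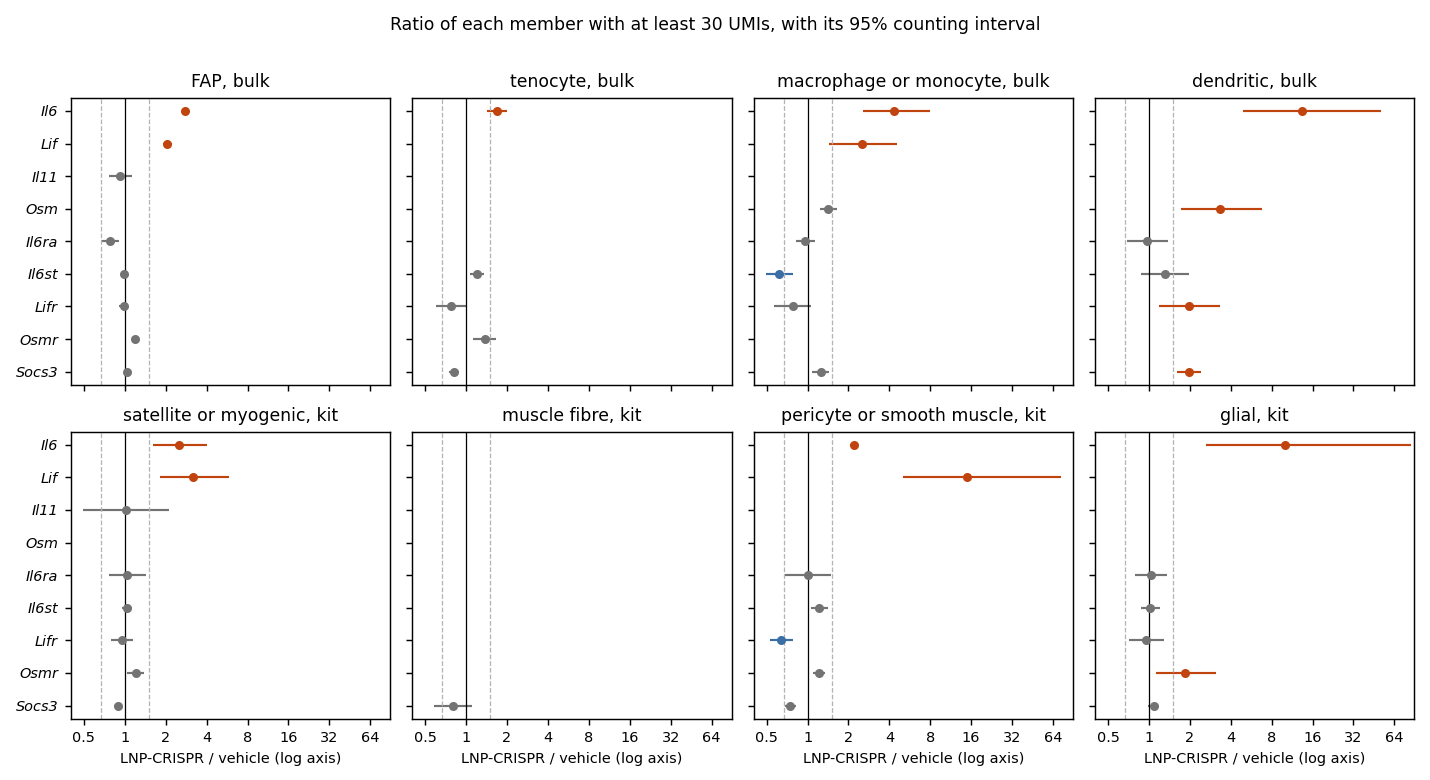
Ratio of LNP-CRISPR over vehicle (log axis, base 2) with its 95% counting interval for each member with at least 30 UMIs in 8 cell classes; orange points were called higher, blue points lower and grey points neither, and dashed lines mark 1.5-fold. Il6 is called higher in 7 classes, from 1.69 in tenocyte-like to 13.4 in dendritic-like cells, while most receptor ratios lie near 1. In macrophage- or monocyte-like, dendritic-like, satellite- or myogenic-like and glial-like cells Il6 levels were low and are not read as expression. The dendritic-like ratio came from 47 and 4 UMIs and fell to 0.465 with called doublets kept and cells named anew.

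The wider pathway was read from 39 listed genes for other ligands and receptors of the family, signalling parts, inhibitors and targets. In FAP-like cells 34 were measured, 6 called higher and 0 lower (2.16% and 3.38% of all genes), with a median log2 ratio of 0.09 against −0.05 for all genes. By the interval bound nearest 1 the highest was Saa3, an acute-phase gene, with 227 CPM with LNP-CRISPR and 15.3 CPM with vehicle (14.8, 13.2–16.6), ahead of the adhesion gene Icam1 (250.1 and 126 CPM, 1.98) and the metallothionein Mt2 (6625 and 4361 CPM, 1.52). The SOCS family gene Cish (1.71), Hp (1.61) and Bcl3 (1.53) were the other 3. Il11ra1, the interleukin 11 binding chain, had 160.1 and 224 CPM (0.713, 0.679–0.749) and was not called.

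In the other bulk classes, 6 of 29 measured pathway genes were higher and 1 lower in tenocyte-like cells (3.9% and 4.66% of all genes; median log2 ratio 0.28 against −0.03 for all genes). The higher ones included Saa3 (43 UMIs with LNP-CRISPR and 1 with vehicle), Bcl3 (2.56) and Icam1 (2.32). In macrophage- or monocyte-like cells 4 of 29 were higher and 0 lower (2.68% and 3.51% of all genes; median 0.10 against −0.02), with Saa3 at 4.45, Lcn2 at 2.40 and Cish at 2.37. In dendritic-like cells 7 of 23 were higher and 0 lower (6.15% and 6.43% of all genes; median 0.31 against −0.05), led by Mt2 (7.48), Cish (4.79) and the angiogenic factor gene Vegfa (2.70).

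In the kit isolation, satellite- or myogenic-like cells had 1 of 31 higher, Icam1 (1.75), and 1 lower, Cntf (0.492), where 1.5% and 2.71% of all genes were called, with a median of 0.13 against −0.02. Pericyte- or smooth muscle-like cells had 2 of 25 higher, Mt2 (2.27) and Serpina3n (1.95), and 1 lower, Cebpd (328 and 557 CPM, 0.588), where 2.91% and 5.49% of all genes were called, with a median of 0.06 against −0.07. Glial-like cells had 3 of 21 higher and 0 lower (3.13% and 1.8% of all genes; median 0.16 against 0.01), among them Mt2 (1.56), and they held Cntf, the gene of ciliary neurotrophic factor, at 670 and 746 CPM (0.898). Muscle fibre-like cells had 2 of 9 higher and 0 lower, where 12.6% and 1.19% of all genes were called, with a median of 0.49 against 0.18 for all genes. Mt2, which also answers to metals and glucocorticoids, was among the 3 highest pathway genes in 6 of the 8 classes when ranked by the interval bound nearest 1, the order used to name genes here, which differs from the order of the ratios themselves.

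Within the LNP-CRISPR libraries, cells could be divided by their Cas9 RNA. In FAP-like cells the 294 cells with at least 4 Cas9 UMIs had 1189 CPM of Il6 and the 44 cells with none had 1020.5 CPM (1.17, 1.09–1.24). Lif had 102 and 155 CPM (0.659, 0.559–0.782) and Socs3 384 and 449 CPM (0.854, 0.777–0.942), at median depths of 29606.5 and 22439 UMIs. In pericyte- or smooth muscle-like cells of the kit isolation the 30 Cas9-rich and 163 Cas9-free cells had 839 and 822 CPM of Il6 (1.02, 0.927–1.12). Lif went the other way there than in FAP-like cells, at 28.7 and 13.4 CPM (2.15, 1.15–3.87), from 18 and 37 UMIs. Il6 levels of cells with and without detected Cas9 both lay above the vehicle levels of 397 and 400.4 CPM. Socs3 went the other way in macrophage- or monocyte-like cells, at 187 CPM in 72 Cas9-rich and 128 CPM in 49 Cas9-free cells (1.46, 1.14–1.89). Satellite- or myogenic-like cells had 39.0 CPM of Socs3 in 94 Cas9-rich and 77.6 CPM in 370 Cas9-free cells (0.503, 0.428–0.588), at median depths of 45451.5 and 22933 UMIs. Within this class in LNP-CRISPR kit, Socs3 ranged from 18.9 CPM in cluster 18 to 293 CPM in cluster 12, and the part of depth and of the mix of clusters in this ratio was not tested.

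Over the 18 units of class and library with at least 50 cells, members were set against all genes by the correlation of log2(CPM + 5), as a description, since units of 1 class share cells of the same kind and units of 1 library share its depth. Il6 was most like Eln (Pearson's r 0.94), C1s1 and Aspn, and Lif most like Thbd (0.89), Plau and B3gnt3. Osm was most like Sirpb1c (0.99), Clec4d and Bst1, and Il11 most like Tfpi2 (0.98). Among the receptor genes Il6ra was most like Cdc42 (0.94), Il6st most like Fut11 (0.97), Lifr most like Pros1 (0.93) and Osmr most like Rhoj (0.98). Between members the highest values were 0.86 for Il6 with Osmr and 0.84 for Il6st with Lifr, and Osm had −0.47 with Osmr.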

How the data were processed

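The authors deposited raw counts, whole UMIs per gene and barcode, from single cells of muscle prepared with the 10x 3' kit v3.1, per the labels' protocols. The matrix headers name cellranger 5.0.1 and the submitters' processing notes Cell Ranger 7.0.1 and mm10; strand use was not given in the sources used here. Kept barcodes had 200 genes or more, and mitochondrial UMIs of no more than 20%. Scrublet (scanpy 1.11.5) called only 0.260% to 0.496% of cells doublets, so doublets are largely still present. Cells were clustered together on 2000 variable genes, 30 components and 15 neighbours at Leiden resolution 1.0, with members, pathway genes and Cas9 left out, and named from 16 marker lists. Clusters 8, 13 and 23 stayed unnamed. A level needed 20 cells and a comparison 50 cells per library. The pathway genes named are the 3 highest and 3 lowest per class by the interval bound nearest 1, plus others called, which were named after their values were seen. Values of 1 listed gene are not reported here. Members, lists and rules were chosen with earlier results of these data known. No test was run, since 1 library per group allows none. The ratio step was run on simulated Poisson counts with known folds. These held no spread between cells or libraries, so they do not show how calls behave with such spread. A count of 0 was set against 3 counts. Groups follow GEO's labels.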

Additional observations from a re-analysis of the deposited data

Results flagged for a closer look

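Lifr was called higher with LNP-CRISPR in dendritic-like cells of the bulk isolation (ratio 1.97) and lower in pericyte- or smooth muscle-like cells of the kit isolation (ratio 0.641). Neither call held with every cell weighted the same or with called doublets kept. The difference between these 2 classes was not tested.

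Cluster 8 was left unnamed because its leading genes were endothelial (Flt1, Cdh5, Pecam1) while most markers it held were those of pericytes, at a median of 1077 UMIs per cell, and the comparisons above do not use it. In the kit isolation its Il6 stood at 2489 CPM in 63 LNP-CRISPR cells and 520.0 CPM in 30 vehicle cells (201 and 38 UMIs), a ratio of 4.79. Its Osmr stood at 310 and 137 CPM (25 and 10 UMIs), a ratio of 2.26.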

How the results depend on the processing

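The 17 called ratios were recomputed in 8 other ways. Under the stricter cell filter and with called doublets kept, all cells were also clustered and named anew, so the cells in a class could differ. All 17 kept their call per total UMIs with mitochondrial genes included, under the stricter cell filter and when scaled by the median gene ratio. Without the highest cell and at clustering resolution 2.0, 16 were kept, with each cell weighted the same 12, and with called doublets kept 13. With each cell weighted the same no interval was computed, so calls in that setting rest on the UMI minimum and the fold alone. When cells were named one by one, only 3 bulk classes could be compared, and the 13 calls still computed were kept. The Il6 ratio ranged from 2.70 to 2.88 in FAP-like and from 1.94 to 2.39 in pericyte- or smooth muscle-like cells. Il6 in dendritic-like cells reversed to 0.465 with called doublets kept, and Lif in FAP-like cells reversed to 0.712 within cluster 5 alone, an alternative chosen after seeing the data; the cause was not tested. The count of bulk pairs called higher, 9, moved to 5 with cells named one by one (3 classes) and to 4 at a minimum of 100 UMIs. The count of bulk pairs called lower, 1, moved to 2 with each cell weighted the same and with called doublets kept, and to 0 at the 2-fold threshold. The count of kit pairs called lower, 1, moved to 0 with each cell weighted the same, with called doublets kept, at clustering resolution 2.0 and at the 2-fold threshold. No paired analysis was possible because each group had 1 library. Depth limits Il11, Osm outside myeloid cells and all members in muscle fibre-like cells, whose median depth was 1623 and 1664 UMIs with LNP-CRISPR and vehicle.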

Other observations

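Socs3 in cluster 8 of the kit isolation, outside the comparisons above, stood at 161 CPM with LNP-CRISPR and 616 CPM with vehicle, from 13 and 45 UMIs. In the tenocyte-like cells of the kit isolation, which were too few for the comparisons (37 and 24), Socs3 stood at 413 and 862 CPM, from 290 and 294 UMIs.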
